A study of Mus musculus with 9 samples.

Results

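Many mouse transcripts entered the gene catalogues from large cDNA and genome annotation projects before anything was known of their function, and carried clone-based symbols that end in Rik or predicted-gene symbols made of Gm and a number. Here such symbols were followed across 3 cell populations of the olfactory lineage. A symbol was selected on its level in FPKM (fragments normalised to transcript length and to library size) when 1 library had at least 5 FPKM and the ratio log2((FPKM + 1)/(FPKM + 1)) was at least 2 over each of the other libraries. Of 21909 gene symbols measured, 2255 were of this kind (1481 ending in Rik and 774 of the Gm form), and 70 met the rule. They were grouped by the library in which they were highest, which gave 31 symbols for HBC, 6 for GBC and 33 for mOSN. The FPKM values of these same libraries chose the members, so their levels are given as a description and no test was made on them.

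The mice were 4 weeks old, and the cells were sorted out of their main olfactory epithelium. Horizontal basal cells (HBC) were sorted as cells binding an anti-CD54-PE antibody, globose basal cells (GBC) as Neurog1-EGFP positive cells, and mature olfactory sensory neurons (mOSN) as OMP-ires-EGFP positive cells. CD54 is the protein of Icam1 and is also known on leukocytes and endothelial cells, Neurog1 is a proneural transcription factor gene of neuronal precursors, and Omp encodes the olfactory marker protein. Poly-A RNA of each population gave 1 library, so no value below has a replicate check. The sources used here give no strain, sex or number of animals. ScriptSeq served to prepare the HBC library, and the Illumina mRNA library kit served for GBC and for mOSN, so kit and population cannot be told apart in any ratio against HBC. In bulk RNA, fewer cells of a type and less RNA per cell cannot be told apart either.

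New sensory neurons are added to the olfactory epithelium throughout life. Horizontal basal cells lie on the basal lamina as a reserve of stem cells, and globose basal cells divide and give rise to the neuronal precursors. The mature neuron carries a dendritic knob with long sensory cilia that hold the odorant receptors and the signalling cascade. A symbol of the Rik or Gm form says nothing of function, and many such genes have since been given a name.

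Each sort gene was highest in its own library. Icam1 had 136 FPKM in HBC, with 0.0456 in GBC and 0.349 in mOSN. Neurog1 had 0.0538 FPKM in HBC, then 163 in GBC and 0.0189 in mOSN, and Omp had 71.6 FPKM in HBC, then 427 in GBC and 1487 in mOSN. The 16 horizontal basal cell markers summed to 1810 FPKM in HBC, with 20.3 in GBC and 36.2 in mOSN, and the 18 mature neuron markers to 185 FPKM in HBC, then 1787 in GBC and 12073 in mOSN. The HBC library also held markers of other cells. The 21 macrophage and monocyte markers summed to 6518 FPKM in HBC, with 8.96 in GBC and 6.84 in mOSN, and 21 of them reached 1 FPKM in HBC. The 18 sustentacular cell markers summed to 2365 FPKM in HBC, then 71.1 in GBC and 245 in mOSN, and the 22 immediate early and dissociation response genes to 6763 FPKM in HBC, then 512 in GBC and 646 in mOSN. In HBC, 13 of 13 lymphocyte, 11 of 12 neutrophil, 11 of 13 endothelial and 11 of 12 fibroblast and smooth muscle markers also reached 1 FPKM. In the same order the counts were 0, 5, 0 and 3 in GBC, and 0, 4, 0 and 4 in mOSN. The part of these cells in the values of the HBC members was not tested.

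The symbols met the rule at shares that are set here beside those of all genes. Over all 21909 symbols, 5.92% met it for HBC, 0.657% for GBC and 2.3% for mOSN. Since the rule used these ratios, nothing is read from the counts of members beside these shares. Since a symbol had to reach 5 FPKM, shares were also taken among the symbols at that level. In HBC, 31 of 228 Rik and Gm symbols at 5 FPKM met the rule (13.6%), beside 1267 of 6083 other symbols (20.8%). In GBC the counts were 6 of 417 (1.44%) and 138 of 6607 (2.09%), and in mOSN 33 of 470 (7.02%) and 470 of 7349 (6.40%).

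**Figure D1:**
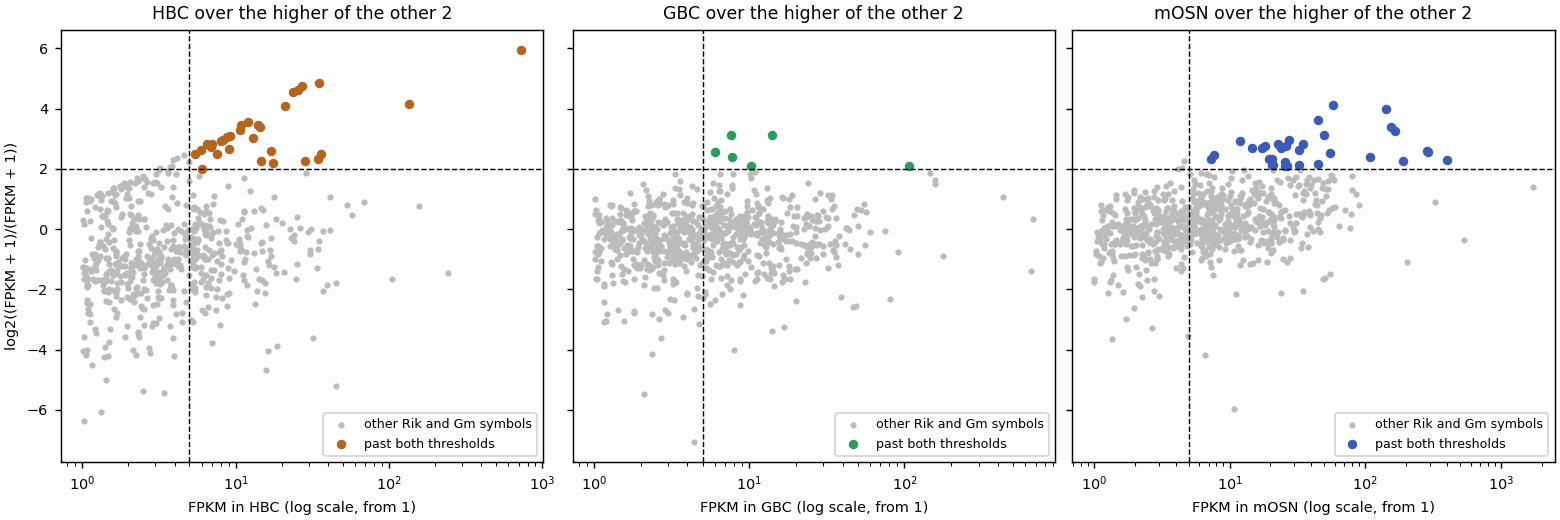
Rik and Gm symbols of at least 1 FPKM in each library, with FPKM on a log axis and, on the vertical axis, the log2 ratio over the higher of the other 2 libraries. The dashed lines are the thresholds of 5 FPKM and of a log2 ratio of 2, and the coloured points past both are the 31 HBC, 6 GBC and 33 mOSN members.

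The symbols nearest to the threshold on each side are given once. In HBC the nearest inside were 2200002D01Rik with a log2 ratio of 2.004, 1110007C09Rik with 2.20 and 1810011O10Rik with 2.25, and the nearest outside were Gm6251 with 1.85, B230120H23Rik with 1.76 and 3110003A17Rik with 1.68. In GBC the nearest inside were Gm949 and 1700054N08Rik, both with 2.10, and D430019H16Rik with 2.41. Outside stood 4930427A07Rik with 1.90, Gm5803 with 1.85 and 6430598A04Rik with 1.84. In mOSN the nearest inside were Gm221 with 2.09, 6430548M08Rik with 2.10 and 2010204K13Rik with 2.13. Outside stood 2700089E24Rik with 1.98, Gm4461 with 1.97 and 4931429I11Rik with 1.96, so the mOSN group has no gap at its threshold. As an example of what lies just outside, 2700089E24Rik had 7.58 FPKM in HBC, with 7.52 in GBC and 32.9 in mOSN.

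The word unnamed no longer holds for most of the members. All 70 symbols were found in the RefSeq gene table, and 43 of them stand there under another symbol, with 22 of 31 in HBC, 3 of 6 in GBC and 18 of 33 in mOSN. Among all 2255 Rik and Gm symbols, 1065 have another symbol (47.6% of the 2237 found in the table). By RefSeq gene type, 58 members are protein coding (82.9%), 9 are long non-coding RNAs and 3 are pseudogenes. Of all 2255 symbols, 1571 are protein coding (70.2% of those found), and of the 1945 symbols of any name that met the rule, 1890 are (97.9%). Of the 9 long non-coding RNAs, 7 stood in the mOSN group, 2 in the HBC group and 0 in the GBC group. That is 21.2% of the mOSN members, beside 20.7% of all Rik and Gm symbols found in the table, and 6.45% of the HBC members. Only 8 long non-coding RNAs of any name met the rule in mOSN, so 7 of those 8 are members. The members lie on 19 chromosomes, with 6 on X, and their loci span 0.947 to 562 kb with a median of 13.2 kb. In what follows the current RefSeq name is given beside the symbol of the files, and positions are those of the files in mm9.

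**Figure D2:**
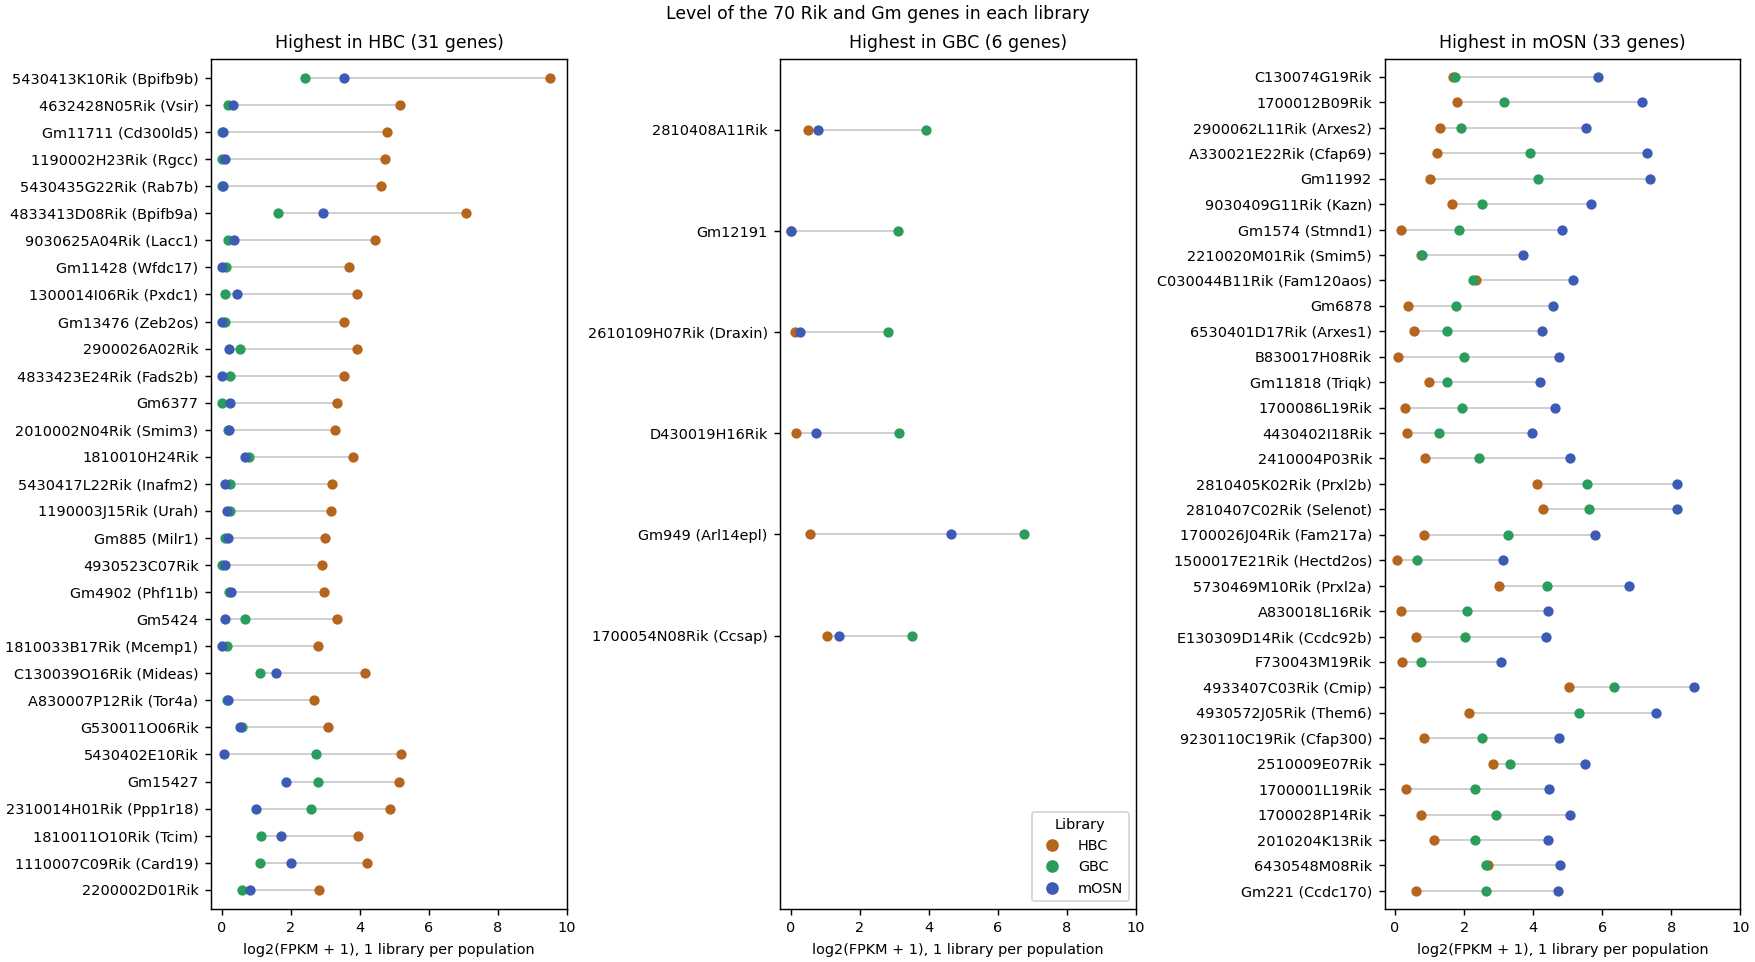
Level of each member in the HBC, GBC and mOSN libraries as log2(FPKM + 1), 1 point per library, ordered within each panel by the log2 ratio over the next-highest library. The HBC panel shows most genes near 0 in both other libraries, and the mOSN panel shows GBC points between the HBC and mOSN points for most genes.

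The HBC members covered a wide range of levels. Their level in HBC ran from 5.43 to 727 FPKM with a median of 13.0, and 23 of 31 were under 1 FPKM in both GBC and mOSN (74.2%), beside 70.4% of all 1298 symbols that met the rule for HBC. The rule itself asks for low values elsewhere, and nothing particular to the members is read from this share. The sum over the members was 1306 FPKM in HBC, and the 3 highest genes made up 68.8% of it. They were Bpifb9b, Bpifb9a and 5430402E10Rik.

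The HBC members are described first for 4 genes of secreted proteins, which include the 3 highest of the group. 5430413K10Rik (Bpifb9b, chr2:154132980-154146378) had 727 FPKM in HBC, with 4.38 in GBC and 10.7 in mOSN, the highest level of any member. 4833413D08Rik (Bpifb9a, chr2:154083615-154096979) had 135 FPKM in HBC, then 2.11 in GBC and 6.61 in mOSN. Both belong to the BPI fold family of secreted lipid-binding proteins of mucosal surfaces, and they lie 36.0 kb apart. Each was higher in mOSN than in GBC while remaining far below HBC, and the value of Bpifb9b in HBC rested on 67162 implied fragments. 5430402E10Rik, listed with the synonym of an odorant-binding protein, had 35.9 FPKM in HBC, with 5.60 in GBC and 0.058 in mOSN. Gm11428 (Wfdc17), a small secreted protein with a whey acidic protein domain, had 12.0 FPKM in HBC and 0.104 in GBC, but was listed at 0 in mOSN. Beside these genes, the 10 Bowman gland markers, a secretory cell type of this mucosa, summed to 98.8 FPKM in HBC, with 8.83 in GBC and 4.20 in mOSN, of which 6 reached 1 FPKM in HBC. Their part in these values was not tested.

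The stretches upstream of the Bpifb9 pair are shown because they are close copies of each other. They lie before the annotated starts, and the transcripts themselves were not compared. The sequences are from RefSeq for GRCm38.p6, the 250 bases before each annotated start at chr2:154257629-154257878 and chr2:154306994-154307243, both on the plus strand. The capitals mark the letters TATAAA, a motif searched on both strands and added after values were seen. Of 242 aligned bases, 230 were identical (95.04%).
Bpifb9a: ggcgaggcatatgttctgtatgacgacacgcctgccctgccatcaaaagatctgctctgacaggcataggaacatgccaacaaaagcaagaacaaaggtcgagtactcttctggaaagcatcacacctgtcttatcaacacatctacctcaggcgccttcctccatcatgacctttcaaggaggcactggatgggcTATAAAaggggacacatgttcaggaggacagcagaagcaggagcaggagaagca
Bpifb9b: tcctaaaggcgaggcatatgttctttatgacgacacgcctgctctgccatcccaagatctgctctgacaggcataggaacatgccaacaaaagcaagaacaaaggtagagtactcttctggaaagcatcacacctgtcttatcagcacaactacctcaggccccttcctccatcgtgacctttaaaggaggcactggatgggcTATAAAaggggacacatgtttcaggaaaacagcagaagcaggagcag
The match lies 54 bases before the start of Bpifb9a and 47 before that of Bpifb9b, counted from its first base. Promoter windows of 300 bases (the 250 bases before and 50 after the start) with TATAAA belonged to 5 of 25 HBC member genes (20%), beside 140 of 974 genes among all that met the rule for HBC (14.4%) and 4234 of 27025 genes in all (15.7%). Bpifb9a and Bpifb9b are both among the 5, so close copies were counted separately, and nothing is read from this share. The likeness of these upstream bases does not show whether the transcripts share reads. How the authors' software divided any shared fragments is not stated in the sources used here. The split of the FPKM between Bpifb9a and Bpifb9b is therefore uncertain.

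A second group of HBC members holds genes known from myeloid and mast cells. Rab7b and Phf11b are listed with them and described by their proteins only. 4632428N05Rik (Vsir, chr10:59809599-59835432), an immune checkpoint receptor, had 35.2 FPKM in HBC, with 0.145 in GBC and 0.261 in mOSN. Gm11711 (Cd300ld5, 2 loci within chr11:114882042-114899083), of the CD300 family of myeloid receptors, had 27.0 FPKM in HBC and 0.0295 in mOSN, but was listed at 0 in GBC. 9030625A04Rik (Lacc1), a metabolic enzyme of macrophages, had 21.0 FPKM in HBC, then 0.134 in GBC and 0.278 in mOSN. All of these were at or near 0 outside HBC. 5430435G22Rik (Rab7b), a small GTPase of late endosomes, had 23.5 FPKM in HBC, with 0.0132 in GBC and 0.0315 in mOSN. Gm885 (Milr1), an immunoglobulin-like receptor of mast cells, had 7.03 FPKM in HBC, then 0.0726 in GBC and 0.137 in mOSN, and 1810033B17Rik (Mcemp1), a membrane protein known from mast cells, had 5.98 FPKM in HBC and 0.126 in GBC, but was listed at 0 in mOSN. Gm4902 (Phf11b), a PHD finger protein, had 6.88 FPKM in HBC, then 0.165 in GBC and 0.201 in mOSN. Of the macrophage markers given above, all 21 met the same rule for HBC. So did 14 of 16 horizontal basal cell markers, 11 of 18 sustentacular cell markers and 17 of 22 immediate early and dissociation response genes. The members were chosen on the same ratios, so nothing is read from this likeness. Of the macrophage markers, 3 reached 1 FPKM in GBC and 1 in mOSN, with Aif1 listed at 0 in mOSN. The part of macrophages in these values was not tested.

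The other named HBC members cover membrane, metabolic and regulatory proteins. 1190002H23Rik (Rgcc), a regulator of the cell cycle, had 25.6 FPKM in HBC and 0.0746 in mOSN, but was listed at 0 in GBC. 4833423E24Rik (Fads2b), a fatty acid desaturase, had 10.7 FPKM in HBC and 0.191 in GBC, but was listed at 0 in mOSN. 1190003J15Rik (Urah), the hydrolase of hydroxyisourate in urate breakdown, had 8.01 FPKM in HBC, then 0.193 in GBC and 0.109 in mOSN. These 3 genes had few fragments outside HBC, at most 7 in any library. 1300014I06Rik (Pxdc1) had 14.03 FPKM in HBC, with 0.0784 in GBC and 0.352 in mOSN. 2010002N04Rik (Smim3) had 8.74 FPKM in HBC, then 0.128 in GBC and 0.158 in mOSN, and 5430417L22Rik (Inafm2) had 8.21 FPKM in HBC, then 0.193 in GBC and 0.0781 in mOSN. Both encode small transmembrane proteins. A830007P12Rik (Tor4a), a torsin of the AAA ATPase family, had the lowest level of the group, at 5.43 FPKM in HBC, with 0.109 in GBC and 0.146 in mOSN.

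The remaining 4 named HBC members kept measurable levels in the neuronal libraries. 2310014H01Rik (Ppp1r18), which encodes the actin-binding phosphatase subunit phostensin, had 28.3 FPKM in HBC, with 5.03 in GBC and 0.988 in mOSN. 1110007C09Rik (Card19), a caspase recruitment domain protein, had 17.5 FPKM in HBC, then 1.17 in GBC and 3.01 in mOSN. C130039O16Rik (Mideas) had 17.0 FPKM in HBC, then 1.19 in GBC and 1.97 in mOSN. Mideas is a subunit of a histone deacetylase complex. 1810011O10Rik (Tcim) had 14.6 FPKM in HBC, with 1.21 in GBC and 2.28 in mOSN.

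Members still without a name, and the non-coding ones, complete the HBC group. 2900026A02Rik had 14.3 FPKM in HBC, with 0.441 in GBC and 0.15 in mOSN, and Gm6377 had 9.23 FPKM in HBC and 0.192 in mOSN, but was listed at 0 in GBC. Both are protein coding. Another 3 coding members were 1810010H24Rik with 13.0 FPKM in HBC, 4930523C07Rik with 6.55 and 2200002D01Rik with 6.04. Each had at most 0.756 FPKM in GBC and in mOSN. The long non-coding RNA Gm13476 (Zeb2os) had 10.8 FPKM in HBC and 0.0716 in GBC, but was listed at 0 in mOSN. G530011O06Rik, the other long non-coding RNA, had 7.54 FPKM in HBC, then 0.523 in GBC and 0.446 in mOSN. The transcribed pseudogene Gm5424 had 9.10 FPKM in HBC, then 0.612 in GBC and 0.0696 in mOSN. Gm15427, a pseudogene, had 34.4 FPKM in HBC, then 5.98 in GBC and 2.68 in mOSN. These rested on only 22 implied fragments in HBC, then 4 in GBC and 2 in mOSN, with the status LOWDATA in every library. RefSeq places the gene of that symbol on another chromosome than the files do, so its identity is uncertain.

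The GBC group is small, and it holds 1 gene at a high level. Gm949 (Arl14epl) had 0.456 FPKM in HBC, with 106 in GBC and 23.99 in mOSN, the only member of the group above 20 FPKM. Its deposited interval was 103 to 109 FPKM in GBC. 2610109H07Rik (Draxin, chr4:147472546-147504807), a secreted repulsive guidance protein of axons, had 0.0895 FPKM in HBC, then 6.04 in GBC and 0.197 in mOSN. 1700054N08Rik (Ccsap), a protein of centrioles, cilia and the spindle, had 1.07 FPKM in HBC, then 10.3 in GBC and 1.64 in mOSN. The other 3 have no name yet. 2810408A11Rik, protein coding, had the largest log2 ratio of the group (3.13), at 0.424 FPKM in HBC, with 14.1 in GBC and 0.721 in mOSN. D430019H16Rik had 0.12 FPKM in HBC, then 7.73 in GBC and 0.642 in mOSN. The transcribed pseudogene Gm12191 had 7.65 FPKM in GBC on 53 implied fragments and 0 implied fragments in HBC and in mOSN. Its locus in the files overlaps the ribosomal protein gene Rpl30 (16.4 FPKM in HBC, 16.6 in GBC, 23.0 in mOSN), and RefSeq places the symbol on another chromosome, so this value too is uncertain. The mOSN value was above the HBC value in 6 of 6 members, although Gm12191 had no fragment in either, beside 62.5% of the 144 symbols that met the rule for GBC. With median-of-ratios scaling it was 4 of 6, beside 48.6%. Precursor markers (17 genes) summed to 95.6 FPKM in HBC, with 818 in GBC and 50.9 in mOSN. Immature neuron markers (15 genes) summed to 136 FPKM in HBC, then 3009 in GBC and 800 in mOSN.

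Most mOSN members also reached 1 FPKM in another library. Their level in mOSN ran from 7.32 to 404 FPKM with a median of 27.5, and their sum was 2427 FPKM, of which the 3 highest made up 40.2%. Only 3 of 33 were under 1 FPKM in both other libraries (9.09%), beside 25.6% of all 503 symbols that met the rule for mOSN. GBC was above HBC in 31 of 33 members (93.9%), and by at least 2-fold on the log2(FPKM + 1) scale in 21. The median of that log2 ratio was 1.38. Among all 503 symbols GBC was above HBC in 93.4% and the median was 1.02, and nothing particular to the members is read from this order. The 2 exceptions were C030044B11Rik and 6430548M08Rik. Summed, the members had 363 FPKM in GBC and 2427 in mOSN, beside 1787 and 12073 for the mature neuron markers. The part of mature or immature neurons in the GBC values was not tested. The median log2 ratio of GBC over HBC was 0.51 across all genes with at least 5 FPKM in either, and with median-of-ratios scaling GBC was above HBC in 28 of 33 members, with a median of 0.87.

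Some mOSN members encode proteins of cilia or with a tubulin-binding domain. A330021E22Rik (Cfap69, chr5:5580982-5664232), a ciliary protein known in mouse to shape the kinetics of the odour response of sensory neurons, had 1.33 FPKM in HBC, with 13.9 in GBC and 155 in mOSN. 9230110C19Rik (Cfap300), an assembly factor of the dynein arms of motile cilia, had 0.791 FPKM in HBC, then 4.70 in GBC and 25.7 in mOSN. Gm1574 (Stmnd1), a protein with a stathmin domain, the tubulin-binding fold, had 0.135 FPKM in HBC, then 2.63 in GBC and 27.5 in mOSN. The 3 genes had the same order of libraries, each with GBC between HBC and mOSN. Beside them, the 20 markers of motile multiciliated cells summed to 25.2 FPKM in HBC, with 184 in GBC and 431 in mOSN. Of the 20, 6 reached 1 FPKM in HBC, then 16 in GBC and 20 in mOSN. The part of multiciliated cells in these values was not tested.

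The other named coding members of the mOSN group include enzymes and scaffold proteins. 4933407C03Rik (Cmip), a signalling adaptor known as the c-Maf inducing protein, had 31.8 FPKM in HBC, with 80.5 in GBC and 404 in mOSN, the highest level in the group. 2810407C02Rik (Selenot), a selenoprotein of the endoplasmic reticulum, had 18.5 FPKM in HBC, then 48.4 in GBC and 289 in mOSN. 2810405K02Rik (Prxl2b), of the peroxiredoxin-like family of thioredoxin-fold proteins, had 16.2 FPKM in HBC, then 46.6 in GBC and 283 in mOSN, and 5730469M10Rik (Prxl2a), of the same family, had 7.04 FPKM in HBC, then 19.9 in GBC and 108 in mOSN. These 4 genes were well expressed in every library and had log2 ratios over GBC of 2.31 to 2.58. 4930572J05Rik (Them6), of the thioesterase superfamily, had 3.43 FPKM in HBC, then 39.0 in GBC and 189 in mOSN. 9030409G11Rik (Kazn), which encodes the junctional protein kazrin, had 2.14 FPKM in HBC, then 4.76 in GBC and 49.6 in mOSN. The last 5 named coding members are less well known. 1700026J04Rik (Fam217a) had 0.796 FPKM in HBC, with 8.67 in GBC and 54.7 in mOSN. Gm221 (Ccdc170) had 0.507 FPKM in HBC, then 5.21 in GBC and 25.4 in mOSN, and E130309D14Rik (Ccdc92b) had 0.528 FPKM in HBC, then 3.09 in GBC and 19.5 in mOSN. Both encode coiled-coil proteins. Gm11818 (Triqk) had 0.99 FPKM in HBC, then 1.82 in GBC and 17.4 in mOSN, and 2210020M01Rik (Smim5), a small membrane protein, had 0.677 FPKM in HBC, then 0.72 in GBC and 12.0 in mOSN.

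A pair of retrotransposed genes on X stood in the mOSN group. 2900062L11Rik (Arxes2, chrX:132528359-132529898) had 1.48 FPKM in HBC, with 2.72 in GBC and 44.9 in mOSN. 6530401D17Rik (Arxes1, chrX:132567906-132569485), which lies 38.0 kb away, had 0.468 FPKM in HBC, then 1.81 in GBC and 18.2 in mOSN. Both arose as copies of Spcs3, a subunit of the signal peptidase that trims secreted and membrane proteins. Spcs3 had 11.1 FPKM in HBC, with 26.3 in GBC and 75.0 in mOSN, so all 3 genes were highest in mOSN, although Spcs3 did not reach the threshold of the rule. The upstream stretch of Arxes1 (chrX:136033117-136033366, plus strand, GRCm38.p6) is printed because that of Arxes2 (chrX:135993570-135993819, plus strand) has the same letters, 250 of 250.
Arxes1 and Arxes2: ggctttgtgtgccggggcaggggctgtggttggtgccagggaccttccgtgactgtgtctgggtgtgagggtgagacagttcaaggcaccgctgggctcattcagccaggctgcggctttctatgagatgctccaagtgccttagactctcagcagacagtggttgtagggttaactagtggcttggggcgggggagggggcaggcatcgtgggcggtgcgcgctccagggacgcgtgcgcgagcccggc
These stretches lie before the annotated starts, and the transcripts of Arxes1, Arxes2 and Spcs3 were not compared. How any shared fragments were divided is not stated in the sources used here. The division of the FPKM between Arxes1, Arxes2 and Spcs3 is therefore uncertain.

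Among the mOSN members without a name, some stood as high as the named ones. 1700012B09Rik (chr9:14562638-14575474) had 2.48 FPKM in HBC, with 7.95 in GBC and 143 in mOSN. Gm11992 (chr11:8948595-8969357) had 1.02 FPKM in HBC, then 16.7 in GBC and 167 in mOSN, and C130074G19Rik (chr1:186695805-186706915) had 2.22 FPKM in HBC, then 2.35 in GBC and 57.6 in mOSN. C130074G19Rik had the largest log2 ratio of the mOSN group (4.13) and nearly the same level in HBC and in GBC. Gm11992, by contrast, was higher in GBC than in HBC. All 3 are protein coding in RefSeq. 2510009E07Rik had 6.07 FPKM in HBC, then 9.11 in GBC and 44.7 in mOSN. 6430548M08Rik had 5.396 FPKM in HBC, then 5.21 in GBC and 26.4 in mOSN, and so like C130074G19Rik had nearly equal levels in HBC and GBC. The other 5 coding members without a name, 2410004P03Rik, 1700028P14Rik, 1700001L19Rik, A830018L16Rik and 4430402I18Rik, had between 14.6 and 32.6 FPKM in mOSN, between 1.42 and 6.64 in GBC and at most 0.832 in HBC.

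The 7 long non-coding RNAs of the mOSN group ranged from 7.32 to 34.9 FPKM there. C030044B11Rik (Fam120aos) had 4.09 FPKM in HBC, with 3.75 in GBC and 34.9 in mOSN. B830017H08Rik had 0.062 FPKM in HBC, then 2.98 in GBC and 26.1 in mOSN, and 1700086L19Rik had 0.219 FPKM in HBC, then 2.85 in GBC and 23.8 in mOSN. Gm6878 had 0.282 FPKM in HBC, with 2.38 in GBC and 22.8 in mOSN. These 4 exceeded 20 FPKM, as did 2010204K13Rik, which had 1.20 FPKM in HBC, then 3.95 in GBC and 20.7 in mOSN. 1500017E21Rik (Hectd2os) had 0.0436 FPKM in HBC, then 0.567 in GBC and 7.65 in mOSN, and F730043M19Rik had 0.144 FPKM in HBC, then 0.667 in GBC and 7.32 in mOSN, the lowest levels of the group.

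The promoters of the mOSN members were searched for 8 motifs on both strands. From these, 1 is shown because its share exceeded those of the comparison sets by the most, a choice made after the shares were seen. GTTGCC is an arm of the X-box, the palindromic site bound by the Rfx factors that regulate ciliary genes. It stood in at least 1 window of 300 bases in 10 of 26 mOSN member genes with a RefSeq promoter (38.5%). The counts were 63 of 403 genes among all that met the rule for mOSN (15.6%) and 3821 of 27025 genes in all (14.1%). The member genes were 1700001L19Rik, 1700012B09Rik, 4430402I18Rik, C130074G19Rik, Ccdc170, Cfap300, Cmip, Gm11992, Prxl2a and Stmnd1. A gene with several windows had more chances of a match. Ccdc170, Cmip, Prxl2a and 4430402I18Rik had more than 1 window and matched in 1 each. Per window the counts were 10 of 37 (27%), 68 of 487 (14%) and 4111 of 32851 (12.5%). In the same order the median GC of the windows was 56%, 50.7% and 52.7%, and the shares were not adjusted for it. A match of 6 letters is a description and not a site, and the comparison was made with no test. The upstream 250 bases of 5 of these member genes are printed 5′ to 3′ on the strand of the gene, with GTTGCC or its reverse complement GGCAAC in capitals. They lie in GRCm38.p6 at chr13:68597189-68597438 (plus), chr11:9048342-9048591 (plus), chr9:8042876-8043125 (minus), chr13:46273471-46273720 (plus) and chr19:28967833-28968082 (minus, the first of 3 windows).
1700001L19Rik: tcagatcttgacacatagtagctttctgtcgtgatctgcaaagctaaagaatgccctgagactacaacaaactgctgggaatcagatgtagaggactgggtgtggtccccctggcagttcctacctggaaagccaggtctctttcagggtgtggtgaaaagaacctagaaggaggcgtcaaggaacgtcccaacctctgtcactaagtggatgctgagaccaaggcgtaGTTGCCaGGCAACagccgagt
Gm11992: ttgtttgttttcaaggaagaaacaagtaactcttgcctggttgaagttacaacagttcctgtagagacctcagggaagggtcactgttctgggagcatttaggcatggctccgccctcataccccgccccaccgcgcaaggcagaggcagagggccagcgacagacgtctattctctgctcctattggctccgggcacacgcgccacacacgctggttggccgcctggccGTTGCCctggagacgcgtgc
Cfap300: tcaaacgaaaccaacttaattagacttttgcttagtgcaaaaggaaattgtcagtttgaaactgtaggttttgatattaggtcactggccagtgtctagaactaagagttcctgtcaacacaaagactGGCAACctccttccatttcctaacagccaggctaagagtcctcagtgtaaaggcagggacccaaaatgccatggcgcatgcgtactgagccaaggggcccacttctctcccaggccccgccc
Stmnd1: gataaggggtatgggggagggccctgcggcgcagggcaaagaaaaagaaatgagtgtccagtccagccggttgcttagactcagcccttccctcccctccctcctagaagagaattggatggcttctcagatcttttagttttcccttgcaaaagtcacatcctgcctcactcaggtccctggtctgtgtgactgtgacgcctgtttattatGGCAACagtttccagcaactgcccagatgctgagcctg
4430402I18Rik: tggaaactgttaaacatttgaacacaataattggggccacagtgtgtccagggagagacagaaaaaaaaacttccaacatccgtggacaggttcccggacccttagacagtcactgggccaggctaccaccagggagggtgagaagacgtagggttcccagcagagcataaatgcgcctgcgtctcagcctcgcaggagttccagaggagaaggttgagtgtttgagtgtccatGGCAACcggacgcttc
In 1700001L19Rik the motif stands on both strands, separated by 1 base, the arrangement that a full X-box has. The first base of a match lay 16 bases before the start in 4430402I18Rik, 20 in Gm11992, 38 in Stmnd1 and 122 in Cfap300.

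The other motifs are given by their shares in the same way. CCCNNGGG, the core of the site of the Ebf factors, stood in 3 of 26 mOSN member genes (11.5%), beside 13.2% of all genes that met the rule for mOSN and 15.4% of all genes. CAGATG, an E-box bound by proneural factors, stood in 6 (23.1%, beside 21.1% and 19.2%). TAATTA, a homeodomain core, stood in 2 (7.69%, beside 11.2% and 6.12%), and TGANTCA, the AP-1 site, in 3 (11.5%, beside 9.93% and 8.97%). TGACGTCA, the cAMP response element, stood in 0 of 26 (beside 1.99% and 2.03%), and GAGGAAGT in 1 (3.85%, beside 2.98% and 3.69%). TATAAA stood in 1 of 26 (3.85%), beside 22.3% of all genes that met the rule for mOSN and 15.7% of all genes. That gene was Selenot. In the HBC promoters GAGGAAGT, the core of the site of the myeloid factor PU.1, stood in 4 of 25 member genes (16%), beside 8.21% of all genes that met the rule for HBC and 3.69% of all genes. Those genes were Cd300ld5, Mideas, Phf11b and Tor4a. GTTGCC stood in 2 of the 25 (8%, beside 12.6% and 14.1%), CCCNNGGG in 5 (20%, beside 24.3% and 15.4%) and TGANTCA in 3 (12%, beside 11.8% and 8.97%). CAGATG stood in 2 (8%, beside 19.5% and 19.2%), and TAATTA and TGACGTCA in 0 (beside 3.39% and 2.16% of all genes that met the rule for HBC). Only 4 GBC member genes had a promoter in the table, which is too few for a share.

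Neighbouring genes followed the members in some places and not in others. Of 20 HBC members with another gene within 10 kb, 4 had one that met the same rule (20%), beside 14.8% of all symbols that met the rule for HBC. For mOSN it was 1 of 19 (5.26%, beside 9.70%), and for GBC 0 of 4. Zeb2, a zinc finger transcription factor gene, overlaps Gm13476 (Zeb2os) and had 8.56 FPKM in HBC, with 0.135 in GBC and 0.1003 in mOSN. Cd300lh, 4.36 kb from Gm11711, had 31.8 FPKM in HBC and 0.0191 in mOSN, but was listed at 0 in GBC. Expi, 2.74 kb from Gm11428, had 89.7 FPKM in HBC, then 2.93 in GBC and 4.64 in mOSN. In each of these pairs both genes were highest in HBC, as were 1110007C09Rik (Card19) and Ninj1, 6.70 kb away, which had 20.5 FPKM in HBC, then 1.32 in GBC and 1.75 in mOSN. On the mOSN side Dbpht2, 1.52 kb from 1700086L19Rik, had 0.0051 FPKM in HBC, then 0.397 in GBC and 6.46 in mOSN.

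Other pairs differed. Cdh23, a cadherin gene that overlaps 4632428N05Rik (Vsir), had 0.435 FPKM in HBC, with 0.301 in GBC and 13.98 in mOSN, the reverse of Vsir. Ebf2, the transcription factor gene that overlaps the long non-coding Gm6878, had 2.34 FPKM in HBC, then 173 in GBC and 124 in mOSN, so it was high in GBC where Gm6878 had 2.38 FPKM. Fam120a, 0.284 kb from C030044B11Rik (Fam120aos), had 26.9 FPKM in HBC, then 19.7 in GBC and 48.9 in mOSN, a narrower range than its neighbour. Mid1, which overlaps G530011O06Rik, had 11.4 FPKM in HBC, then 6.78 in GBC and 1.81 in mOSN, and Yif1b, which overlaps 2200002D01Rik, had 9.59 FPKM in HBC, then 10.8 in GBC and 11.03 in mOSN. Mid1 was highest in HBC like its partner but also expressed in GBC, and Yif1b was nearly level across the libraries. Sun3, which overlaps Gm11992, was listed at 0 in HBC and had 0.228 FPKM in GBC and 1.94 in mOSN. Recql5, which overlaps 2210020M01Rik (Smim5), had 1.92 FPKM in HBC, then 5.50 in GBC and 2.77 in mOSN. Ppapdc2, within the locus of 4430402I18Rik, had 2.74 FPKM in HBC, then 6.67 in GBC and 12.4 in mOSN, and Hectd2, which overlaps 1500017E21Rik, had 0.450 FPKM in HBC, then 0.0802 in GBC and 0.876 in mOSN. In all, 5 HBC, 1 GBC and 5 mOSN members overlap another locus (16.1%, 16.7% and 15.2%, beside 11.9%, 13.9% and 7.75% of all symbols that met the rule in that library). The sources used here do not state the strand of counting, so fragments of overlapping genes cannot be assigned with certainty. Without the overlapping members the groups held 26 (HBC), 5 (GBC) and 28 (mOSN) genes.

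**Figure D3:**
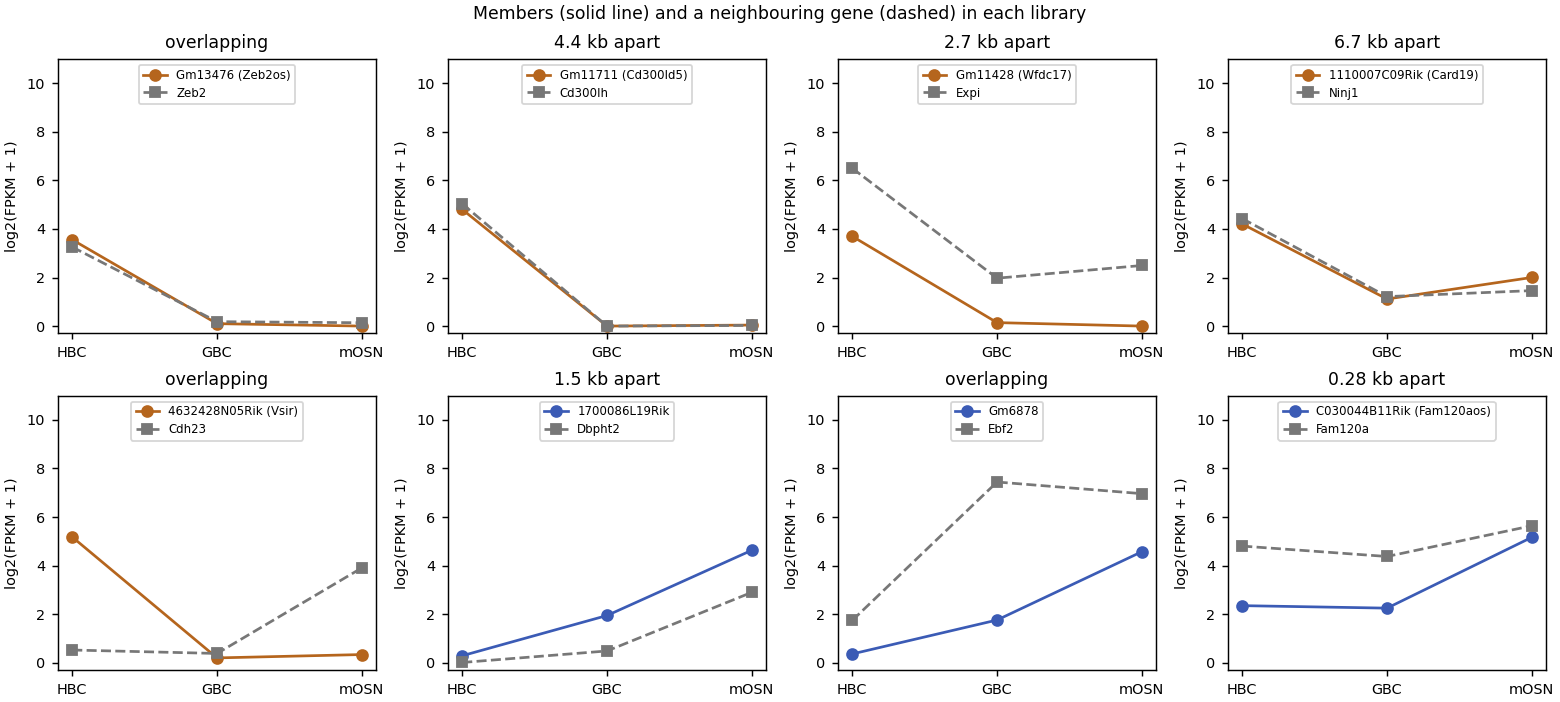
Level of 8 members (solid line) and of an overlapping or near gene (dashed line) in HBC, GBC and mOSN, as log2(FPKM + 1), with 1 library per population. In the top row and in the panels of 1700086L19Rik and C030044B11Rik both genes are highest in the same library, whereas Cdh23 is highest in mOSN where Vsir is highest in HBC, and Ebf2 is highest in GBC where Gm6878 is highest in mOSN.

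The deposited interval in the highest library did not overlap that of either other library in 70 of 70 members. Among all symbols that met the rule it was 1296 of 1298 for HBC, 141 of 144 for GBC and 500 of 503 for mOSN. The rule on the same values nearly fixes this, so nothing is read from it, and the intervals cover counting error only. The fragments implied by the intervals totalled 18123443 in HBC, with 18087564 in GBC and 16516700 in mOSN, of which the members held 131136 (HBC), 46272 (GBC) and 149022 (mOSN). For 1 and the same gene, 1 FPKM stood for different numbers of fragments in different libraries. Over 10158 genes the ratio of this number between GBC and HBC spanned 8.16-fold between the 5th and 95th percentiles. Between mOSN and HBC it spanned 4.38-fold, and between mOSN and GBC 2.26-fold. With 1 conversion factor per gene, 62 of the 70 members kept a log2 ratio of at least 2. The other 8 were 1110007C09Rik (1.02), 2310014H01Rik (1.502), 2200002D01Rik (1.60), 4930572J05Rik (1.69), Gm949 (1.71), C030044B11Rik (1.80), E130309D14Rik (1.84) and 2510009E07Rik (1.91). The highest library of every member stayed the same. The whole rule on these values gave 38 HBC, 8 GBC and 36 mOSN symbols, of which 26, 5 and 29 were members as deposited.

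**Figure D4:**
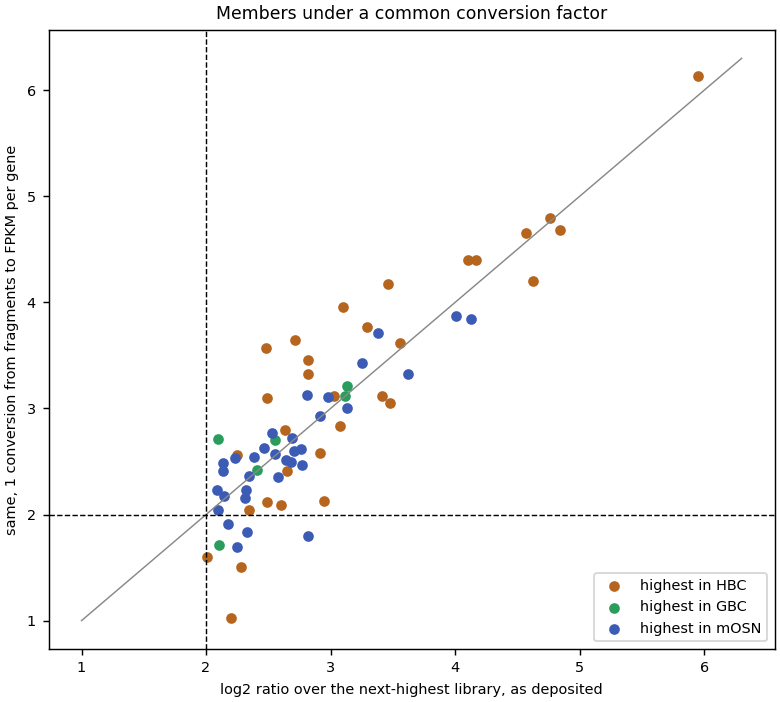
Log2 ratio of each of the 70 members over the next-highest library as deposited (horizontal axis) and with 1 conversion factor from fragments to FPKM per gene (vertical axis), coloured by highest library. The solid line marks equal values and the dashed lines a ratio of 2, below which 3 HBC, 1 GBC and 4 mOSN members lie on the vertical axis.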

How the data were processed

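Poly-A RNA of 3 sorted populations was measured, with 1 library each, grouped by their titles. Per the file headers, the authors deposited FPKM per gene with an interval and a status for each library. Bowtie, TopHat, Cufflinks and the build mm9 are named in the submitters' processing notes, and the sources used here give no versions, annotation or strand of counting. The series' 3 samples of 5-hydroxymethylcytosine and 3 of 5-methylcytosine were not analysed here.

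Rows of 1 symbol were summed (222 symbols). Ratios were taken as log2((FPKM + 1)/(FPKM + 1)), a scale on which changes of low genes are understated. Implied fragments came from the interval width (2 standard errors of a count), and of rows with up to 100 fragments, 77.9% (HBC), 69.7% (GBC) and 69.3% (mOSN) lay within 0.03 of a whole number. With 1 library per population there was no test, no p-value and no count model. RefSeq tables (GRCm38.p6) gave names, gene types and promoters only, with 21664 of 21909 symbols matched. Starts in the mm9 tables were raised by 1.

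Named genes were, per group, the 10 largest ratios, the 10 highest levels and the 3 nearest the threshold, every renamed, overlapping or low-data member and near-identical copies, plus the sort genes. A few other members, Spcs3 and some neighbours were named after their values were seen. The members, lists and motifs were chosen with earlier results of these data known. The motif TATAAA and the alternatives without HBC and without overlapping loci were added after seeing the data. The selection was run on simulated data with large set changes and counting error only. That checks the code and does not cover variation between libraries. Python 3.11.15, pandas 2.3.3, numpy 2.4.6 and Biopython 1.88 were used.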

Additional observations from a re-analysis of the deposited data

How the results depend on the processing

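No member had a ratio of the opposite sign under the 7 alternatives run on single members. The members were chosen at a log2 ratio of at least 2, and a pseudocount cannot reverse a sign, so nothing is read from this. The counts were within 1.5 times the reported ones with no minimum FPKM and with the highest row per symbol. So they were with FAIL or LOWDATA rows left out, 1 conversion factor per gene, separate intervals, and overlapping loci left out. Similar counts need not mean the same symbols. With 1 conversion factor per gene, 26 of 31 HBC, 5 of 6 GBC and 29 of 33 mOSN members still met the rule, and other symbols entered. With a pseudocount of 5 FPKM there were 7 HBC, 0 GBC and 15 mOSN members, and 564, 58 and 144 genes in all. With a pseudocount of 0.1 FPKM there were 12 GBC members and 189 genes in all. With a minimum of 20 FPKM there were 10 HBC and 1 GBC members, and 560, 74 and 253 genes in all. Rescaled to a common sum there were 97 HBC and 23 GBC members, with 2454 and 428 genes in all. This rescaling raised the values of every library, so the minimum of 5 FPKM was easier to reach and the pseudocount of 1 FPKM weighed less. The log2 ratio of 4632428N05Rik (Vsir), for example, went from 4.84 to 6.64. These counts therefore do not compare scaling alone. By median-of-ratios scaling 331 genes met the rule for mOSN. Without the HBC library 16 members and 274 genes met it for GBC, and 37 members and 618 genes met it for mOSN. As deposited, the median log2 ratio of all genes with at least 5 FPKM in either library was 0.29 for mOSN over GBC, 0.51 for GBC over HBC and 0.79 for mOSN over HBC, and the members' ratios are to be read beside it. With a common sum, on the raised values, these were -0.05, 0.45 and 0.38, and 8 mOSN members were below 2. By median-of-ratios scaling they were 0.12, -0.05 and 0.06, and 6 mOSN members were below 2. The causes were not tested. No paired analysis was possible because each population has 1 library. Depth limits most the members with few fragments, such as Gm15427 and Gm12191.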
